A study of Mus musculus with 9 samples.

Results

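The axon guidance ligands and receptors described here are 44 protein-coding genes of mouse build GRCm38 chosen by symbol: the semaphorins of classes 3 to 7 (Sema3 to Sema7), the plexins (Plxna to Plxnd), Slit1 to Slit3, Robo1 to Robo4, the netrins Ntn1 to Ntn5 and Unc5a to Unc5d. The annotation used holds 21887 protein-coding genes on the autosomes, X and Y, of which these are 44. The symbols gave 20 semaphorins, 9 plexins, 3 Slits, 4 Robos, 4 netrins (Ntn1, Ntn3, Ntn4 and Ntn5) and 4 Unc5 receptors. The rule uses no measured value. Lung endothelial cells of wild-type mice were profiled by ACT-seq (antibody-guided tagging of chromatin by Tn5): the antibody against a mark recruits Protein A/G-Tn5, which inserts sequencing adaptors nearby. Libraries were made for H3K4me3, for 7 histone acetylations (H3K27ac, H3K9ac, H3K18ac, H3K14ac, H3K23ac, H2AK5ac and H4K8ac), and with IgG as the control. All 9 libraries, 1 for each target, come from wild-type cells, and the labels name no treatment. The labels used here state neither the age, sex or number of the mice nor the way the cells were isolated. With 1 library per mark there is no replicate error, and no test was run.

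Semaphorins are secreted or membrane-bound ligands that act mainly through plexins, often with a neuropilin as co-receptor, and plexins signal to the cytoskeleton through small GTPases. Slits bind Robo receptors, and netrins bind DCC and Unc5 receptors. These systems were first described as cues that attract or repel growing axons, and endothelial cells use several of the same genes to steer and stabilise vessels. Robo4, Unc5b and Plxnd1 are the receptors best known from endothelium. H3K4me3 is typical of active or poised promoters. Acetylation of histone tails, H3K27ac most of all, is typical of active promoters and enhancers.

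The libraries of the marks held between 1477463 (H3K4me3) and 10044130 (H3K14ac) reads in the table, and the IgG library held 365999. The deposited count table joins 8 peak lists, which were separated again, and each is named by the library that was densest in it. The density of that library was 1.98 times (H3K27ac-rich list) to 23.8 times (H2AK5ac-rich list) that of the next library. The next library was IgG for the lists of H3K4me3, H3K9ac, H3K27ac, H3K18ac and H3K14ac. By this density the H3K27ac-rich and H3K14ac-rich lists are the least separated from the control. The density is a fit over each whole list and gives no value for a single peak. In the H3K14ac-rich peaks where reads could be placed, described below, IgG had reads at 0.875% of 14288 genes. These measures were not reconciled. Of 10 endothelial marker genes, 9 carried peaks of all 8 lists and Cldn5, a tight junction protein, carried none. All 8 lists were found at 2 of 10 lung epithelial, 1 of 10 leukocyte, 2 of 10 mesenchymal and 4 of 10 neuronal marker genes, with medians of 6.5, 5.5, 6.5 and 7 lists, against 8 for the endothelial markers. The part that other cells in the preparation have in the values of the guidance genes was not tested. In such bulk libraries a mark in few cells and a weak mark in many cells cannot be told apart.

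Each guidance gene carried peaks of acetylation lists somewhere in the gene or within 2 kb of it. All 44 had H3K14ac-rich peaks and all 44 had H3K18ac-rich peaks, against 89.8% and 77.3% of all protein-coding genes. H3K23ac-rich peaks were found at 43 members (69.7% of all genes), H4K8ac-rich peaks at 42 (75.4%), and H3K27ac-rich peaks at 41 (71.6%). H3K4me3-rich peaks were found at 41 (69.6%), H2AK5ac-rich peaks at 39 (55.2%) and H3K9ac-rich peaks at 32 (59.2%). Peaks of all 8 lists were found at 29 of 44 members, 65.9%, against 44.6% of all genes. With only the peaks wider than the minimum width of their list, 16 members had all 8, against 18.6% of all genes.

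Guidance genes are long, and a long gene has more room for peaks. Their median length was 64.9 kb, against 17.2 kb for all protein-coding genes, and ran from 5.56 kb (Ntn3) to 1555 kb (Robo2). Among the 23 members of 50 kb or more, 17 (73.9%) carried all 8 lists, against 69.8% of all genes of that length. Among the 21 shorter members, 12 (57.1%) did, against 37.2%. Of the 21 shorter members, all 21 had H3K27ac-rich peaks (65.6% of all genes under 50 kb), H3K18ac-rich (71.5%), H3K23ac-rich (62.7%) and H3K14ac-rich peaks (87%). H4K8ac-rich peaks were found at 20 (69.6%), H3K4me3-rich at 18 (63.5%), H2AK5ac-rich at 17 (47.4%) and H3K9ac-rich at 14 (53.4%). For every list the share of shorter members was above that of shorter genes at large. The shorter members were also longer in the median than all shorter genes, so these shares are not matched for length. The part that length has in the difference was not tested.

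The 23 longer members lay closer to the background. All 23 had H3K14ac-rich (99.7% of all genes of 50 kb or more), H3K18ac-rich (97.1%) and H3K4me3-rich peaks (90.7%). H4K8ac-rich (95%), H3K23ac-rich (93.5%) and H2AK5ac-rich peaks (82%) were found at 22 each. H3K27ac-rich peaks were found at 20 (92.2%), with none at Sema3c, Sema5b and Unc5c, and H3K9ac-rich peaks at 18 (78.9%).

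**Figure D1:**
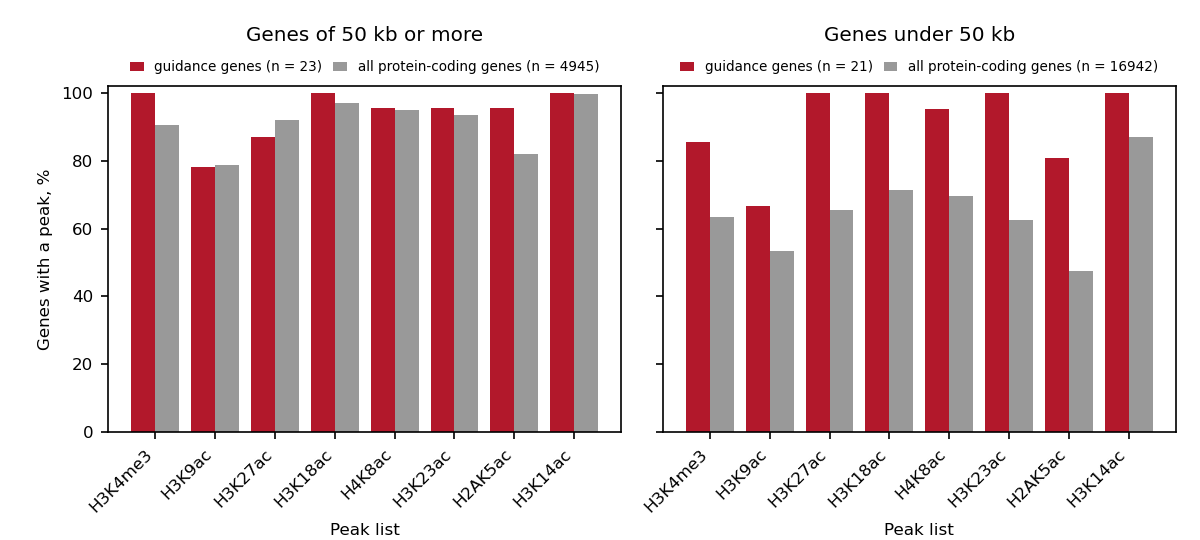
Share of genes (y axis, %) with at least 1 base of a peak in the gene span plus 2 kb, for each of the 8 lists (x axis), in guidance genes (red) and all protein-coding genes (grey), with genes of 50 kb or more on the left and shorter genes on the right. Red bars stand above grey bars for every list on the right, and on the left they are lower than grey bars for the H3K27ac-rich and H3K9ac-rich lists. In both classes the guidance genes are longer in the median than all genes.

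Per kb of window, median coverage was higher in shorter members than in all shorter genes in the H3K27ac-rich and H3K4me3-rich lists, and in longer members it was near that of genes of like length. Each window is the gene plus 2 kb on both sides, and coverage is the number of its bases inside peaks. Median H3K27ac-rich coverage was 19.8 bases per kb in the 44 members and 18.6 in all genes. In the members under 50 kb it was 34.4, against 21.2 in all such genes, and in the members of 50 kb or more it was 11.6, against 14.7. The H3K4me3-rich list had 43.0 bases per kb in shorter members, against 24.4 in all shorter genes, and 6.34 in longer members, against 11.5 in all longer genes. For the H3K14ac-rich list the medians differed less, with 47.0 in shorter members, against 38.0 in all shorter genes, and 39.4 in longer members, against 40.4. Within both classes of length the groups still differ. The longer members had a median length of 206 kb, against 98.5 kb in all longer genes, and the shorter members were likewise longer than all shorter genes. Coverage was therefore also set against genes in each member's own bin of length, a comparison added after the values were seen. The median of these bins for the longer members was 11.98 H3K27ac-rich and 7.31 H3K4me3-rich bases per kb, beside the 11.6 and 6.34 of the members, and 12 of 23 lay above the median of their bin in each of these lists. For the shorter members it was 25.9 and 34.9, and 11 and 13 of 21 lay above the median of their bin. Above the upper quartile of their bin lay 10 and 9 of the 21, and below the lower quartile 2 and 0. Where the lower quartile is 0, no gene can lie below it. In the H3K9ac-rich list the shorter members lay lower, at 10.9, against 15.7 in their bins.

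**Figure D2:**
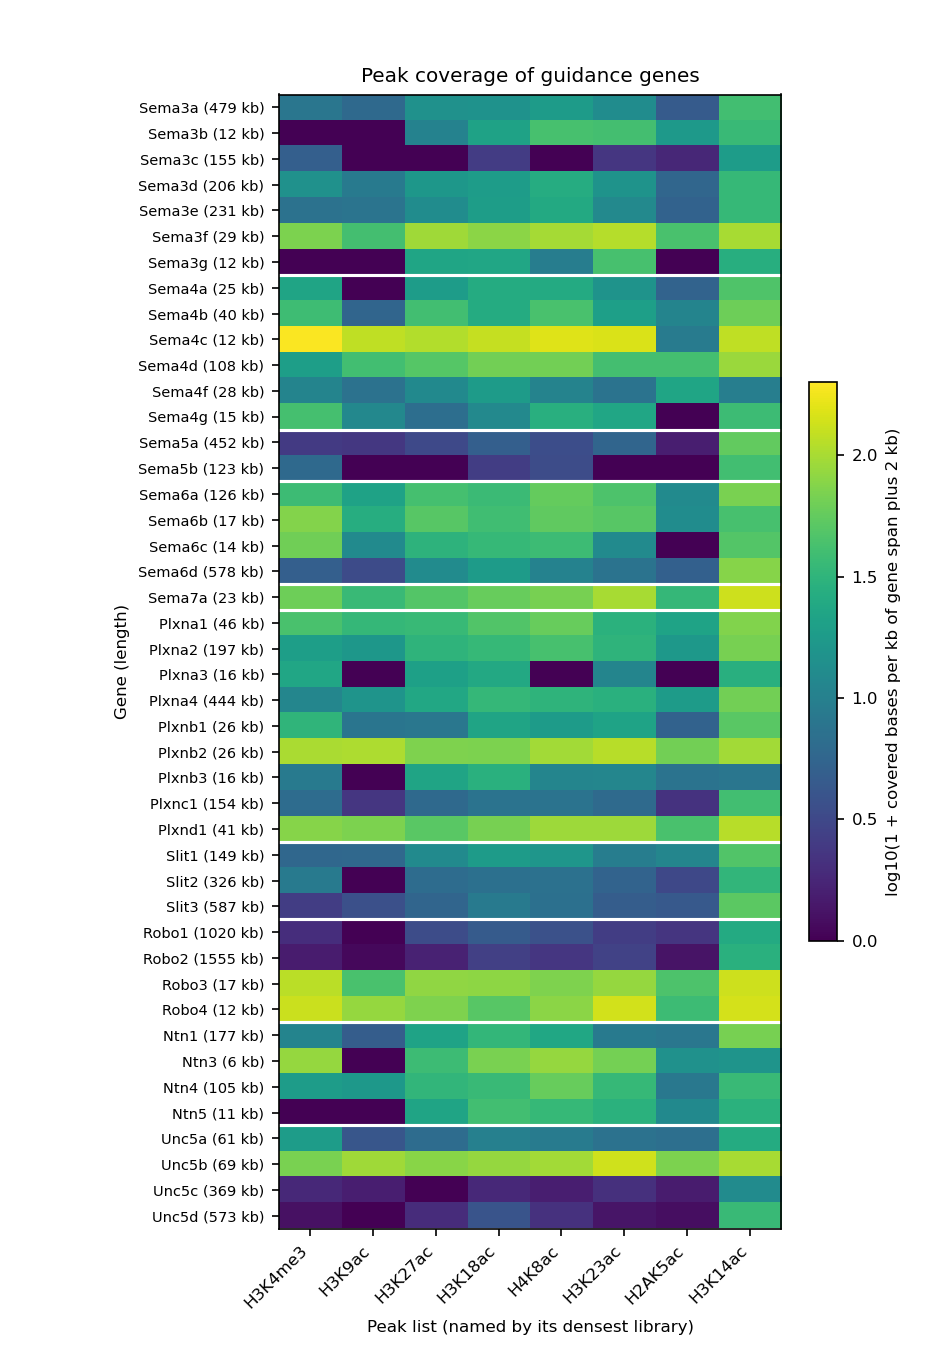
Covered bases per kb of gene span plus 2 kb, as log10(1 + value), for the 44 guidance genes (rows, with length in kb, white lines between families) in each of the 8 peak lists (columns). Sema4c, Sema3f, Plxnb2, Plxnd1, Robo3, Robo4 and Unc5b are bright across most columns, while Robo1, Robo2, Unc5c, Unc5d, Sema3c and Sema5b are dark outside the H3K14ac-rich column.

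**Figure D3:**
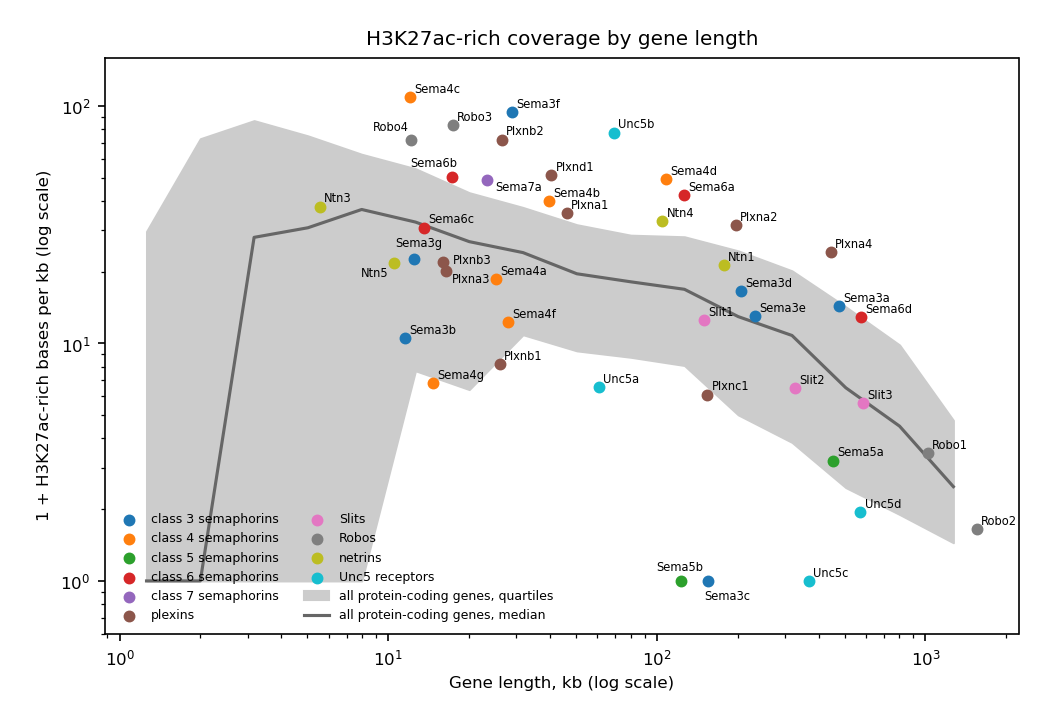
H3K27ac-rich covered bases per kb plus 1 (y axis, log scale) against gene length in kb (x axis, log scale), with guidance genes as points coloured by family and all protein-coding genes as a grey line (median) and band (quartiles) over bins of length. Unc5b, at 76.3 bases per kb and 69.0 kb, lies far above the band, while Unc5c, Sema3c and Sema5b lie at 0.

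Among the receptors, 1 of the 4 Unc5 genes stood apart from its relatives. Unc5b (chr10:60762594-60831581, 69.0 kb) encodes the netrin receptor that restrains sprouting in vessels. Its window held 7196 bases of H3K14ac-rich, 6948 of H4K8ac-rich, 6287 of H3K18ac-rich and 5568 of H3K27ac-rich peaks. It further held 9854 bases of H3K23ac-rich, 5035 of H2AK5ac-rich, 4899 of H3K4me3-rich and 6810 of H3K9ac-rich peaks. No other guidance gene had as many H3K4me3-rich or H3K9ac-rich bases, including members more than 10 times as long.

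The other 3 Unc5 genes, best known as netrin receptors of neurons, were sparse, with H3K27ac-rich coverage below the lower quartile of genes in their bins of length. Unc5c (chr3:141465564-141834924, 369 kb) held 0 bases of H3K27ac-rich peaks, 204 of H4K8ac-rich, 204 of H3K9ac-rich and 314 of H3K4me3-rich peaks, and 4416 of H3K14ac-rich peaks. Unc5d (chr8:28646717-29219671, 573 kb) held 20361 bases of H3K14ac-rich peaks but 548 of H3K27ac-rich, 157 of H3K4me3-rich and 0 of H3K9ac-rich peaks. Unc5a (chr13:54945151-55006018), close to Unc5b in length at 60.9 kb, held 360 bases of H3K27ac-rich, 1159 of H3K4me3-rich and 204 of H3K9ac-rich peaks. Per kb, H3K27ac-rich coverage was 76.3 bases in Unc5b, 5.55 in Unc5a, 0.950 in Unc5d and 0 in Unc5c.

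Unc5b also carried the most places where all lists met. Peaks of different lists that shared at least 1 base were merged into regions, and a region holding all 8 lists is called an 8-list region here. Such a region need not have 1 base common to all lists. Unc5b had 8 of them, and 32 of 21887 genes (0.146%) had 8 or more, all of them 50 kb or longer (0.647% of genes of that length). Their centres lay 0.461, 3.14, 12.2, 14.5, 16.8, 23.2, 25.8 and 38.3 kb downstream of the annotated start. The widest, chr10:60830408-60831833, covered the start and 1426 bases, and the next, chr10:60807688-60808978, lay well inside the gene and covered 1291 bases.

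**Figure D4:**
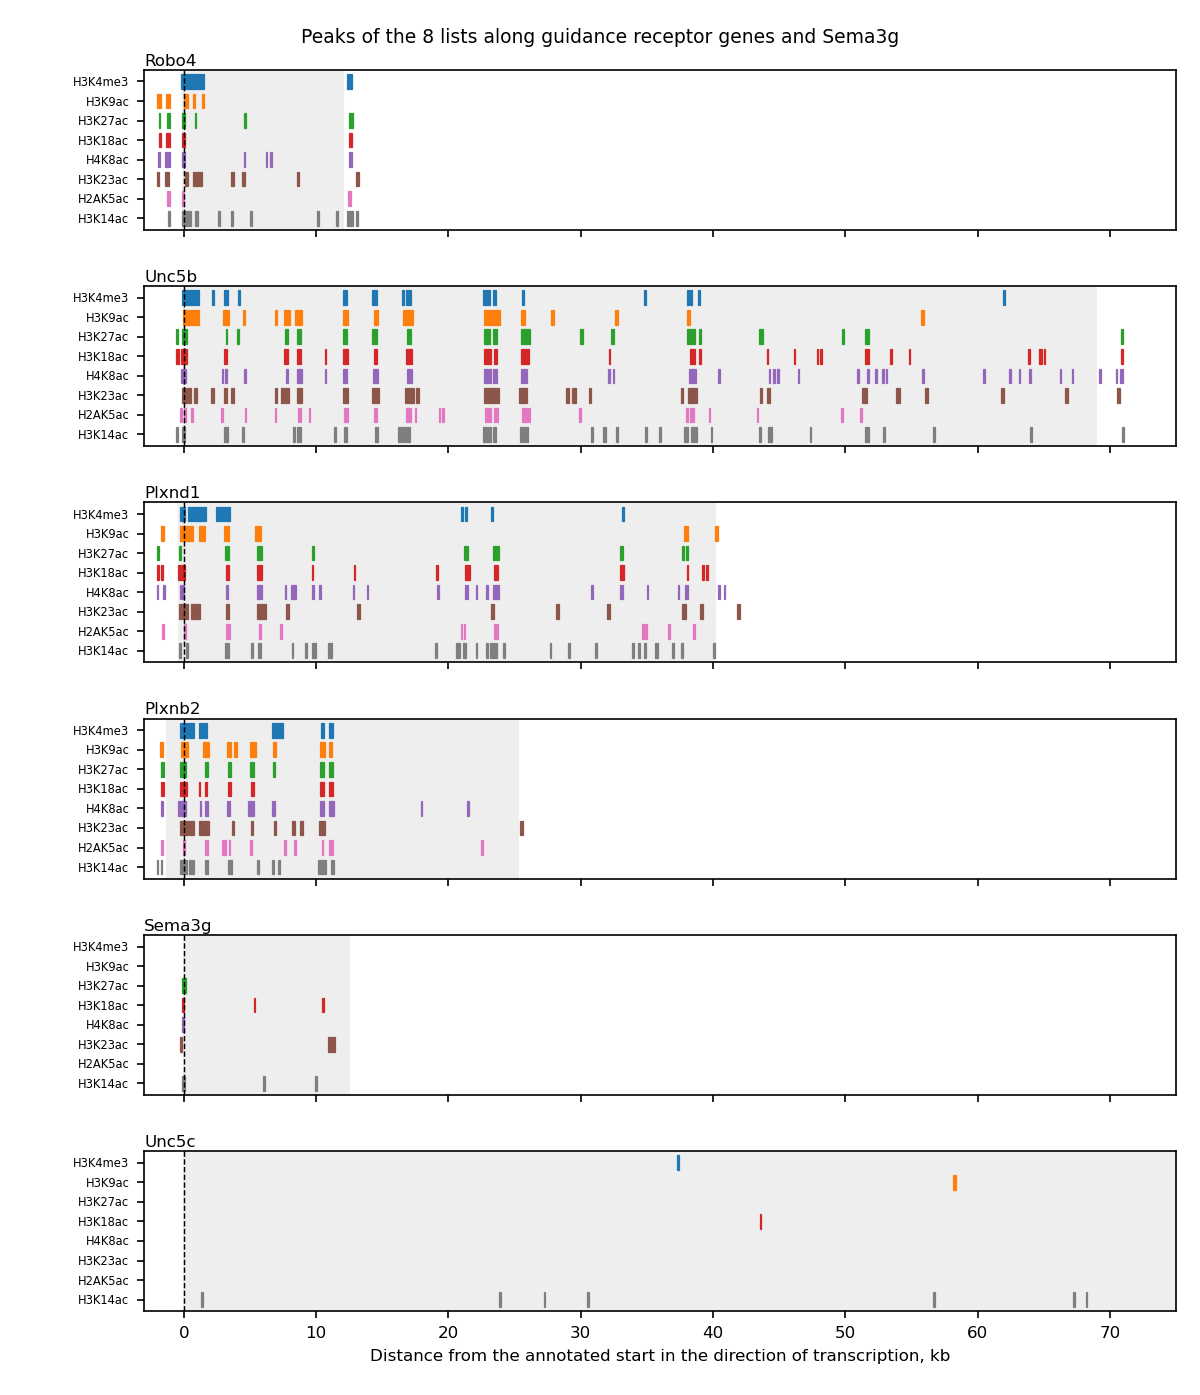
Peaks of the 8 lists (rows, coloured by list) along Robo4, Unc5b, Plxnd1, Plxnb2, Sema3g and Unc5c, by distance in kb from the annotated start in the direction of transcription (dashed line at 0, gene in grey, first 75 kb of Unc5c). In Unc5b the lists stack at 8 places up to 38.3 kb from the start, in Sema3g at 1 place without H3K4me3-rich, H3K9ac-rich or H2AK5ac-rich peaks, and in Unc5c at none.

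Among the Slit receptors, short Robo3 and Robo4 were densely covered and the very long Robo1 and Robo2 were not. Robo4 (chr9:37401902-37414023, 12.1 kb) is the endothelial Robo, which stabilises vessels. It held 2263 bases of H3K14ac-rich, 1257 of H4K8ac-rich, 805 of H3K18ac-rich and 1148 of H3K27ac-rich peaks, with 2213 of H3K23ac-rich, 595 of H2AK5ac-rich, 2073 of H3K4me3-rich and 1378 of H3K9ac-rich peaks. Its 8-list region, chr9:37401801-37403539, covered the annotated start and 1739 bases. Robo3 (chr9:37416045-37433436), a divergent Robo that controls midline crossing of axons, is the neighbour of Robo4. It held 1760 bases of H3K27ac-rich, 2432 of H3K4me3-rich and 921 of H3K9ac-rich peaks. The windows of Robo3 and Robo4 overlap, and merged regions between the genes count for both, 1 of them with 6 or more lists.

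Robo1 (chr16:72027518-73047491) and Robo2 (chr16:73891976-75447443), the canonical Slit receptors of axons, span 1020 kb and 1555 kb. Robo1 is also among the members with known endothelial roles. Robo1 held 24851 bases of H3K14ac-rich peaks, 2503 of H3K27ac-rich, 1044 of H3K4me3-rich and 0 of H3K9ac-rich peaks. Robo2 held 43435 bases of H3K14ac-rich, 1009 of H3K27ac-rich, 785 of H3K4me3-rich and 204 of H3K9ac-rich peaks. Per kb, H3K27ac-rich coverage was 82.3 bases in Robo3, 71.2 in Robo4, 2.44 in Robo1 and 0.647 in Robo2. Robo1 and Robo2 lay between the quartiles of the 48 genes in their bin of length, 0.449 and 3.75. Robo3 and Robo4 lay above the upper quartiles of theirs, 42.2 and 53.5. Robo1 and Robo2 each had 0 regions of 6 or more lists, against 5 at Robo3 and 3 at Robo4.

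The promoter sequences of 6 genes are shown because they set starts under many lists beside starts under few or none, and a CpG-poor start beside CpG-rich ones. They give the 250 bases before the annotated start, 5′ to 3′ on the gene's strand, from RefSeq on GRCm38.p6. Capitals mark the ETS core CCGGAA, the SP/KLF box GGGCGG, and the facing pair GGAA and TTCC with 4 bases between them, searched on both strands. The facing pair can share its GGAA with an ETS core.
Robo4, chr9:37401722-37401971, plus strand: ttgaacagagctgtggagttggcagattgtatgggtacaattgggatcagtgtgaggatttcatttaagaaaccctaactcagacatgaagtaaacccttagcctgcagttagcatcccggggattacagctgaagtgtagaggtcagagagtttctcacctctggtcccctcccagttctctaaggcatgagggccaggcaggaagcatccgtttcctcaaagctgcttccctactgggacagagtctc
Unc5b, chr10:60831582-60831831, minus strand: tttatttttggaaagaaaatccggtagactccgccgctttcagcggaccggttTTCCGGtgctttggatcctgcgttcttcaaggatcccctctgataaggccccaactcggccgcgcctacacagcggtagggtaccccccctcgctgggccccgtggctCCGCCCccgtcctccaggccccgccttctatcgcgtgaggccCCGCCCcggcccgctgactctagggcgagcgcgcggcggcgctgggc
Plxnd1, chr6:115995006-115995255, minus strand: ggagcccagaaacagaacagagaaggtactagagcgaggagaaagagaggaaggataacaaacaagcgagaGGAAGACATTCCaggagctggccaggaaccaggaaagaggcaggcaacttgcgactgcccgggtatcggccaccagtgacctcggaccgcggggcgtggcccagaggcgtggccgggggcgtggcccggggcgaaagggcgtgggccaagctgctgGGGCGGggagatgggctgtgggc
Sema3g, chr14:31217623-31217872, plus strand: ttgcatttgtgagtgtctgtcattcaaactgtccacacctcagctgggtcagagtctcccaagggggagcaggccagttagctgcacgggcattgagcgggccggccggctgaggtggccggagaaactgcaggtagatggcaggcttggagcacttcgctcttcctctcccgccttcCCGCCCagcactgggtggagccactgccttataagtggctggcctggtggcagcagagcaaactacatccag
Unc5c, chr3:141465314-141465563, plus strand: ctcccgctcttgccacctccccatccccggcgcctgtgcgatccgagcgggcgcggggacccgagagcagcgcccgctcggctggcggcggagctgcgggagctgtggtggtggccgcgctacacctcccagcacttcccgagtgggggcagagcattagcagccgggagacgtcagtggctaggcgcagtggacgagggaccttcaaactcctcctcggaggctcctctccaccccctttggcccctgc
Robo1, chr16:72662899-72663148, plus strand: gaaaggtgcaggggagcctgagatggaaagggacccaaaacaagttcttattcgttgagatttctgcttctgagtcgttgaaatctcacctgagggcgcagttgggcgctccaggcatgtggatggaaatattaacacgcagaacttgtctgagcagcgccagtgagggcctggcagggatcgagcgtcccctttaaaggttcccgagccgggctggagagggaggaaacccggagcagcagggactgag

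Robo4 and Unc5b were both covered by many lists at the start, on sequences of opposite composition. The printed Robo4 sequence holds 2 CpG and no capital, and the Unc5b sequence holds 27 CpG, 1 ETS core and 2 SP/KLF boxes. Over the whole promoter window of 300 bases (250 before and 50 after the start), CpG was at 0.106 of its expected frequency in Robo4 and at 0.990 in Unc5b. Peaks of 7 lists lay over the Robo4 window, with 221 bases of H3K4me3-rich and 183 of H3K27ac-rich peaks, and peaks of 8 lists lay over the Unc5b window, with 205 and 183. The Unc5c sequence, with 23 CpG and an observed over expected ratio of 0.685, had peaks of 0 lists in its window, and within 2 kb of the start 138 bases of H3K14ac-rich peaks alone. The Robo1 window had 21 bases of H3K4me3-rich peaks and no acetylation peak, at a ratio of 0.653. The start used for Robo1 lies inside its span, and other starts of the gene were not used here.

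Across the 49 promoter windows of the 36 members with an annotated start, H3K4me3-rich peaks went with CpG-rich sequence, as they did in all genes. The median CpG ratio was 0.723 in the 31 with an H3K4me3-rich peak within 2 kb and 0.308 in the 18 without, against 0.766 and 0.207 in 21263 promoters of all genes. Against that order, Robo4 had the lowest ratio of the 31 and Slit3 the highest of the 18, at 0.928. Sema3c, at 0.979, had peaks of only 1 list in the window itself. The ETS core was found in 10.2% of member promoters, against 18.7% of all. The facing pair was found in 1, that of Plxnd1 printed above (2.04%), against 0.856% of all. The SP/KLF box was found in 65.3%, against 46.2%. The NF-Y box CCAAT was found in 16.3%, against 38.2%, and the letters TATAAA in 2.04%, against 12.6%. TGANTCA (AP-1) was found in 6.12%, against 6.99%, CACGTG (E-box) in 8.16%, against 7.84%, and TGACGTCA (CRE) in 0, against 2.23%. These are matches of letters in the window and do not show that a factor binds.

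Within 2 kb of an annotated start, H3K18ac-rich peaks were found at 30 of the 36 members, against 64.6% of 17492 genes with a start. H3K14ac-rich peaks were found at 28 (78.4% of genes), H3K4me3-rich at 28 (60.6%) and H4K8ac-rich at 27 (63.4%). The remaining lists were found at fewer members, with H3K27ac-rich at 24 (60.9%), H3K23ac-rich at 22 (54.9%), H2AK5ac-rich at 17 (35.7%) and H3K9ac-rich at 16 (49.8%). All 8 lists were found at 11 starts, 30.6%, against 29.6% of genes, so for the complete set the members were near the background. At 0 of the 36 members the start was free of all lists, against 14.1% of genes. Starts of Plxna1, Plxna4, Unc5d, Sema3b, Sema3f, Ntn1, Sema6a and Slit1 were not analysed here. The 11 with all lists were Sema3e, Sema4d, Sema6b, Sema7a, Plxna2, Plxnb2, Plxnd1, Robo3, Robo4, Ntn4 and Unc5b.

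Plexins, the semaphorin receptors, carried all 8 lists at 7 of 9 genes, against 44.6% of all genes. Of the 9, 3 are 50 kb or longer, a class in which 69.8% of all genes carried 8 lists. Plxnd1 (chr6:115954811-115995339, 40.5 kb), the endothelial receptor for Sema3e, held 5005 bases of H3K14ac-rich, 4076 of H4K8ac-rich, 2949 of H3K18ac-rich and 2241 of H3K27ac-rich peaks. It further held 4019 bases of H3K23ac-rich, 1912 of H2AK5ac-rich, 3347 of H3K4me3-rich and 3056 of H3K9ac-rich peaks. An 8-list region of 2059 bases, chr6:115993352-115995410, covered the start, and another lay with its centre 2.98 kb downstream.

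Plxnb2 (chr15:89155546-89182018, 26.5 kb), a receptor of class 4 semaphorins, was the densest plexin in 7 lists, all but the H3K14ac-rich one, with 71.2 H3K27ac-rich, 101 H3K4me3-rich and 103 H3K9ac-rich bases per kb. Its close relative Plxnb1, the receptor of Sema4d, had 7.18 H3K27ac-rich, 31.1 H3K4me3-rich and 6.78 H3K9ac-rich bases per kb at nearly the same length (26.1 kb). Plxnb2 had 3 of the 8-list regions and Plxnb1 had 0. Part of the Plxnb2 window belongs to the neighbour Dennd6b, and part of the Plxnb1 window to Ccdc51.

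Long plexins of class A, receptors that pair with neuropilins for secreted semaphorins, held many bases. In all 8 lists their coverage per kb lay above the upper quartile of genes in their bins of length. Plxna4 (chr6:32144543-32588192, 444 kb) had 10379 bases of H3K27ac-rich peaks, the most of any member, with 4591 of H3K4me3-rich and 6548 of H3K9ac-rich peaks. That is 23.2 H3K27ac-rich bases per kb, against an upper quartile of 13.3 in its bin. Plxna2 (chr1:194619791-194816869, 197 kb) had 6157 bases of H3K27ac-rich and 3713 of H3K4me3-rich peaks, or 30.6 and 18.5 per kb. The upper quartiles of its bin were 23.6 and 12.9. Both genes had 4 of the 8-list regions, of which 3 lay more than 32 kb from the start in Plxna2. The X-linked Plxna3 and Plxnb3 carried the fewest lists of the plexins. Plxna3 had 5 lists, with 0 H4K8ac-rich, H2AK5ac-rich and H3K9ac-rich bases, and Plxnb3 had 7 lists, with 0 H3K9ac-rich bases. Per kb, their H3K27ac-rich coverage of 19.2 and 21.0 bases was above that of Plxnb1 and Plxnc1. Plxna1, at 34.4 H3K27ac-rich bases per kb, lay above the median of all genes under 50 kb, and Plxnc1, the receptor of Sema7a, at 5.10, lay below that of longer genes.

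The secreted class 3 semaphorins spanned the whole range. Sema3f (chr9:107681499-107710475, 28.98 kb), which acts through neuropilin 2, had 93.4 H3K27ac-rich, 68.7 H3K4me3-rich and 40.1 H3K9ac-rich bases per kb. Its 8-list region, chr9:107695378-107696454, lay 14.4 kb inside the gene from its lower end. Sema3e (chr5:14025276-14256689, 231 kb), the ligand of Plxnd1, held 2844 bases of H3K27ac-rich peaks, or 12.1 per kb, with an 8-list region of 1373 bases over its start. Receptor and ligand thus both had 8-list regions at their starts.

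Sema3a (chr5:13124822-13603485, 479 kb), the classical axon repellent, held 6482 bases of H3K27ac-rich and 3388 of H3K4me3-rich peaks. Its annotated start, which lies inside the span, had 0 H3K4me3-rich bases within 2 kb, and an 8-list region, chr5:13398998-13400122, began 2214 bases downstream of it. The other 8-list region of Sema3a lay 130 kb from the start. Sema3d, a cue for pulmonary vein patterning, had 1 at 124 kb from the start.

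Sema3c and Sema3g with 5 lists, and Sema3b with 6, carried the fewest lists in class 3. Sema3c (chr5:17574816-17730268, 155 kb), a ligand of the cardiac outflow tract, held 2817 bases of H3K14ac-rich peaks, 248 of H3K18ac-rich and 628 of H3K4me3-rich peaks, and 0 of H3K27ac-rich, H4K8ac-rich and H3K9ac-rich peaks. Sema3g (chr14:31217873-31230352, 12.5 kb), a semaphorin of arterial endothelium, held 357 bases of H3K27ac-rich, 689 of H3K23ac-rich, 365 of H3K18ac-rich, 140 of H4K8ac-rich and 442 of H3K14ac-rich peaks. It held 0 bases of H3K4me3-rich, H3K9ac-rich and H2AK5ac-rich peaks. All 357 H3K27ac-rich bases lay in 1 peak over the annotated start, inside a merged region of 5 lists, chr14:31217570-31218067. The Sema3g promoter printed above, with 8 CpG, was thus partly covered by acetylation-list peaks, without an H3K4me3-rich peak. Sema3b had 149 bases of H3K27ac-rich and 0 of H3K4me3-rich peaks.

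Membrane semaphorins of class 4 carried all 8 lists at 4 of 6 genes, against 44.6% of all genes. Sema4c (chr1:36548639-36560699, 12.1 kb), a ligand of Plxnb2, had the highest density of any member in 6 lists, with 108 H3K27ac-rich, 194 H3K4me3-rich and 120 H3K9ac-rich bases per kb. Its only 8-list region, chr1:36546633-36547742, lay outside the gene, with its edge 9815 bases from the nearest Sema4c start, in a window that also holds Ankrd39 and Fam178b. Within 2 kb of its own starts Sema4c held 777 bases of H3K27ac-rich and 2097 of H3K4me3-rich peaks. Sema4d (chr13:51685529-51793678, 108 kb), the ligand of Plxnb1, held 5422 bases of H3K27ac-rich peaks and 3 of the 8-list regions. Sema4a, Sema4b, Sema4f and Sema4g lay between 5.79 and 38.7 H3K27ac-rich bases per kb.

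The 2 class 5 semaphorins, which carry thrombospondin repeats, had most of their covered bases in the H3K14ac-rich list, the largest of the 8. So did long members of other families, such as Unc5d (20361 of 23728 bases over all lists) and Robo2 (43435 of 53535). Sema5b (chr16:35541154-35664261, 123 kb) carried 4 lists, the fewest of the 44, with 4968 bases of H3K14ac-rich, 645 of H3K4me3-rich, 306 of H4K8ac-rich and 208 of H3K18ac-rich peaks. Sema5a (452 kb) had 25264 bases of H3K14ac-rich and 1009 of H3K27ac-rich peaks, or 55.5 and 2.22 per kb. It nonetheless carried all 8 lists, with 2125 H3K23ac-rich bases, 1826 H3K18ac-rich bases and 1146 H4K8ac-rich bases. At its start it had 7 lists, and a region of 6 lists and 869 bases covered the start. Its H3K27ac-rich coverage lay between the quartiles of its bin of length, 1.47 and 13.3. In Sema5b H3K14ac-rich coverage was 39.1 per kb, and the median over all genes of 50 kb or more was 40.4.

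In class 6, transmembrane ligands of class A plexins, Sema6a (126 kb) held 5343 bases of H3K27ac-rich and 4773 of H3K4me3-rich peaks. Its widest H3K4me3-rich peak covered 2002 bases. Sema6d (chr2:124089943-124667789, 578 kb), the ligand of Plxna1, held 6907 bases of H3K27ac-rich and 43997 of H3K14ac-rich peaks. Its H3K27ac-rich coverage was 11.9 per kb, between the median and the upper quartile of its bin, 5.51 and 13.3. Sema6b and Sema6c, both short, had 49.1 and 29.8 H3K27ac-rich bases per kb. Sema7a (chr9:57939596-57962865, 23.3 kb), a lipid-anchored semaphorin that binds Plxnc1 and integrins, had 47.7 H3K27ac-rich and 60.8 H3K4me3-rich bases per kb, with all 8 lists within 2 kb of its start.

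The Slit ligands are long and lay between the quartiles of H3K27ac-rich coverage for their bins of length. Slit2 (chr5:47981291-48307735, 326 kb) held 1812 bases of H3K27ac-rich, 2600 of H3K4me3-rich and 0 of H3K9ac-rich peaks. Its widest H3K4me3-rich peak covered 1680 bases at the start, in a region of 5 lists. Slit3 (chr11:35121456-35708507, 587 kb) held 2725 bases of H3K27ac-rich peaks, and within 2 kb of its annotated start only 104 of H3K18ac-rich peaks. Its 4 regions of 6 or more lists all lay more than 2 kb from the start, the one with 7 lists with its centre 466 kb away. Slit1 had 11.6 H3K27ac-rich bases per kb, against 5.48 in Slit2 and 4.61 in Slit3.

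Among the netrins, Ntn4 (chr10:93641049-93745972, 104.9 kb), a laminin-binding netrin of vascular basement membrane, had 31.8 H3K27ac-rich bases per kb and an 8-list region of 2084 bases over its start. Ntn1 (chr11:68209364-68386826, 177 kb), the prototype axon attractant and ligand of Unc5b, had 20.4 H3K27ac-rich bases per kb and a region of 7 lists, chr11:68385573-68387354, at its upper end. Ntn3 had 7 lists in 5.56 kb, with 86.2 H3K4me3-rich bases per kb in a window shared with Tbc1d24. Ntn5 carried 6 lists and 0 H3K4me3-rich bases, and its region of 6 lists lay 1.11 kb before the start in a window shared with Sec1.

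Regions of 6 or more lists were few among the merged regions of the members, and most 8-list regions lay beyond 2 kb of the starts used. The 44 windows held 3264 merged regions, of which 2663 held 1 list, 116 held 6 or more and 38 held all 8. The like shares of merged regions were not computed for all genes. At least 1 region of 6 or more lists was found at 29 members, against 56.5% of all genes, at least 1 of 8 lists at 17, against 31.1%, and at least 2 at 9, against 7.75%. Among the 23 members of 50 kb or more, 14 had a region of 6 or more lists, against 74.3% of all such genes. Of the same 23, 10 had at least 1 8-list region, against 44.7%, and 6 had at least 2, against 18.6%. Of the 29 8-list regions in genes with an annotated start, 9 lay within 2 kb of it and 20 lay beyond. This split was not made for all genes, and Unc5b alone held 8 of the 29. Starts absent from the promoter windows were not counted. In Sema4d the widest H3K4me3-rich peak, of 1264 bases, lay 36.5 kb upstream of the nearest start used. It covered the upper end of the gene, its 5′ end on the minus strand, where no start was used. Peaks near starts made up a smaller share in the members than in all genes, at 32.1% against 44.8% of H3K4me3-rich peaks and 16.8% against 29.9% of H3K27ac-rich peaks, in genes that also differ in length.

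Read counts could be placed at part of the genes only. A count can be placed where an identifier of the table holds 1 region, and these regions all belong to the H3K14ac-rich list on some chromosomes. Reads of every mark were thus seen only under H3K14ac-rich peaks. How reads in bases shared by peaks of several lists were counted was not tested, so such bases may be missing from the counts. At least 1 such region lay in the windows of 34 members, and IgG had 0 reads in all 34, as it did in the windows of all but 0.875% of 14288 genes. Folds over IgG are therefore lower bounds, set against a floor of 3 IgG reads per gene, or 8.20 CPM (reads scaled to the library total). H3K14ac was at least 2-fold over the floor at 19 members, against 23.6% of genes, but these regions are H3K14ac-rich peaks and nothing is read from that count. H3K27ac passed at 17, against 16.6%. H3K18ac passed at 9 (8.19%), H3K4me3 at 9 (7.94%), H4K8ac at 4 (5.47%), H3K23ac at 1 (0.847%), and H2AK5ac (1.14%) and H3K9ac (1.67%) at 0. Sema5b, with no H3K27ac-rich peak, passed for H3K27ac with 60 reads, at least 2.89-fold. Reads summed over a window grow with the length of the gene, so these counts are not levels per length. Among the 15 members of 50 kb or more with a placeable region, H3K27ac passed at 13, against 52.6% of such genes. H3K18ac passed at 8 (25.8%) and H3K4me3 at 5 (12.1%). All 23 longer members had a median length of 206 kb, against 98.5 kb in all longer genes, and these shares were not matched for length. With 1 IgG read as the floor, chosen after seeing the data, H4K8ac passed at 13 of the 34 members (15% of genes), H3K18ac at 18 (18.2%), H3K4me3 at 19 (17.3%) and H2AK5ac at 1 (2.02%).

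Plxnd1 was the 1 member past the floor for H3K23ac. It had 589 H3K14ac reads, 267 H3K27ac, 215 H4K8ac, 107 H3K18ac, 95 H3K4me3 and 91 H3K23ac reads in 26 placeable regions, with 0 of H2AK5ac, H3K9ac and IgG. This put H4K8ac at least 14.99-fold, H3K27ac at least 12.9-fold and H3K23ac at least 2.31-fold above IgG. Sema6a had 656 H3K14ac, 175 H3K27ac, 196 H4K8ac and 73 H3K4me3 reads. Robo2 had 5441 H3K14ac reads, 263 H3K27ac, 18 H4K8ac and 10 H3K4me3 reads in 279 regions.

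H3K27ac and H3K14ac reads were counted in the same regions, all of them H3K14ac-rich peaks. H3K27ac outside those peaks does not enter the balance of H3K27ac and H3K14ac, and the order of genes below holds for those peaks alone. Bases that those peaks share with other lists may be missing too. Robo4 had 9 H3K4me3 and 0 H3K9ac placeable reads, beside 2073 H3K4me3-rich and 1378 H3K9ac-rich bases in its window. In the 31 members with at least 10 reads of both together, the median share of H3K27ac in the sum of both was 14.3%, against 12% in 11980 genes. It was highest in Sema6b at 41.8% and Robo4 at 40.2% (95% Wilson interval 30.6 to 50.7%, of 87 reads). Plxnb2 had 34.3%, Sema7a 32.0% and Plxnd1 31.2% (28.2 to 34.4%, of 856 reads). It was lowest in Sema3c at 2.43%, Unc5c at 2.72%, Robo2 at 4.61%, Robo1 at 4.63% and Unc5d at 4.64%. The intervals of Robo4 and Robo1 did not overlap, nor did those of Robo4 and Robo2. These genes differ widely in length, at 12.1 kb with 10 placeable regions in Robo4, 1020 kb with 171 in Robo1 and 1555 kb with 279 in Robo2. The shares, and the 12% over all genes, were not matched for length. The intervals cover counting error only. The H3K14ac library was also the deepest, so the share orders genes and is no ratio of mark levels. Unc5b lies on a chromosome without placeable regions and has no such value.

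**Figure D5:**
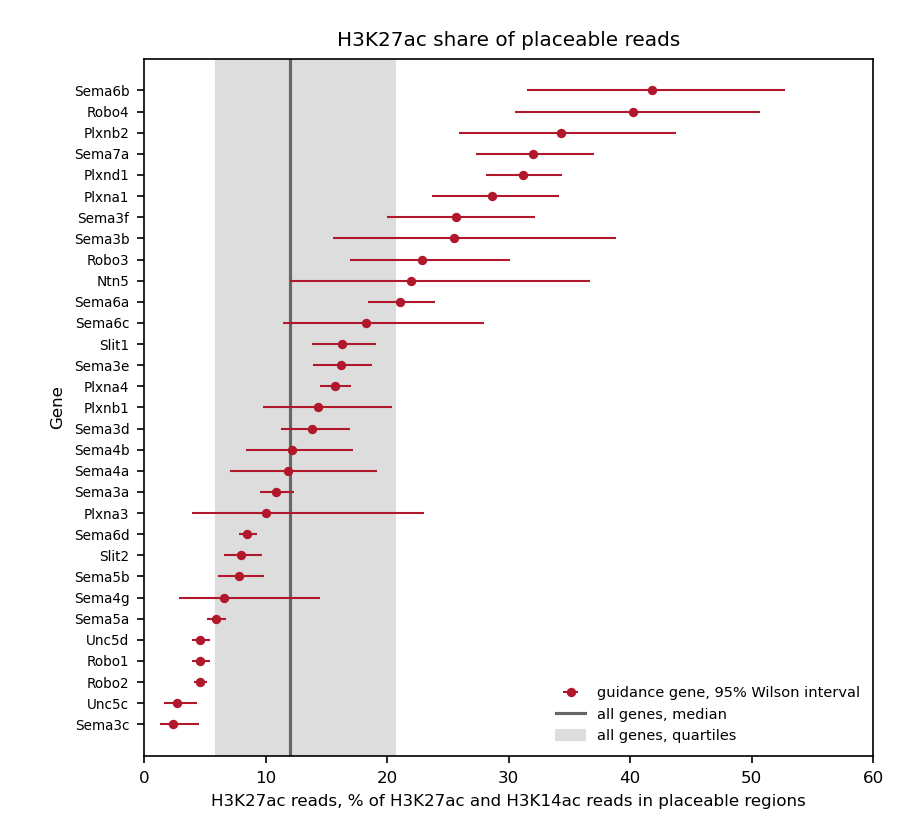
H3K27ac reads as % of H3K27ac and H3K14ac reads in placeable regions (x axis) for 31 guidance genes (rows), as points with 95% Wilson intervals, over the median (line) and quartiles (band) of 11980 genes. Sema6b, Robo4, Plxnb2, Sema7a and Plxnd1 lie above 31%, and Sema3c, Unc5c, Robo2, Robo1 and Unc5d lie below 5%.

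Other genes of the pathway, 50 co-receptors, adhesion partners and cytoplasmic effectors, were widely covered too. All 8 lists were found at 35 of 50, against 44.6% of all genes. Of the 50, 32 are 50 kb or longer, of which 24 carried all 8 lists (75%, against 69.8% of genes of that length), and of the 18 shorter genes 11 did (61.1%, against 37.2%). The median H3K27ac-rich coverage was 30.4 bases per kb, against 18.6 in all genes. The highest were Rras, a GTPase switched off by plexins, at 153 bases per kb, Rac1 at 85.7, Gipc1, an adaptor of neuropilins, at 85.1, Fes, a kinase in semaphorin signalling, at 78.7, and Mical1, an oxidase that disassembles actin, at 68.7. L1cam, a neuronal adhesion partner of Sema3a signalling, carried 0 lists.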

How the data were processed

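The deposited file is a table of counts, with 578465 identifiers and 9 libraries. Per the file headers, featureCounts 2.0.6 counted paired-end reads without strand. The submitters' processing notes name Trim Galore, STAR, MACS2 and the builds mm10 and GRCm38.p6. Aligner and peak caller settings, and the treatment of duplicates and IgG, were not given in the sources used here. The deposited table's column of region lengths was not used; widths were computed from starts and ends.

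The identifiers hold 1309635 regions, because 8 numbered peak lists had been joined. Regions were assigned back so that every list ran in genome order and kept its minimum width. 0 identifiers broke this, and on simulated lists 99.97% of 43625 regions (99.2% with order alone) returned to their own list. The simulated lists were sparser than the real ones and drew their positions from the separated lists. The share returned is thus for an easier setting. Each list was named by its densest library. Peaks were set against RefSeq genes (GRCm38.p6), with starts from RefSeq promoter windows, which gave 36 of 44 members. Placeable regions are identifiers with 1 region; a fold needed at least 10 reads over mark and IgG, and a read share at least 10. Intervals and floors cover counting error only. Python 3.11.15, numpy 2.4.6, scipy 1.17.1 and pandas 2.3.3 were used.

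The members, gene lists and motifs were chosen with earlier results of these data known. Described in full were members with known endothelial roles, the 5 with the most H3K27ac-rich and H3K4me3-rich bases, the 5 with the fewest lists, and the 5 highest and 5 lowest in H3K27ac-rich bases per kb. The 6 printed promoters and other members named were chosen after their values were seen. Alternatives changed the window, the peak width, the separation, the overlap, the scaling, the floor and the background genes.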

Additional observations from a re-analysis of the deposited data

How the results depend on the processing

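No paired analysis was possible because each mark has 1 library, and no library could be left out. With only peaks wider than the minimum width of their list, members with peaks of all 8 lists numbered 16, against 18.6% of all genes, H3K23ac-rich peaks were found at 23 members (45.6% of genes) and H2AK5ac-rich peaks at 25 (24.4%). At annotated starts the same setting left H3K14ac-rich peaks at 17 of 36 members (53.5% of genes with a start), H3K23ac-rich at 14 (40.8%) and H2AK5ac-rich at 4 (11.6%). Median covered bases per member were then 1513 for the H3K14ac-rich list, 999.5 for H4K8ac-rich, 1167.5 for H3K18ac-rich, 242 for H3K23ac-rich, 172.5 for H2AK5ac-rich and 137 for H3K9ac-rich, since minimum-width peaks were left out. With 10 kb around the gene, the H3K9ac-rich median was 918.5 bases, over wider windows. With 1 IgG read as the floor, an alternative chosen after seeing the data, the members past 2-fold numbered 13 of 34 for H4K8ac (15% of genes), 18 for H3K18ac (18.2%), 1 for H2AK5ac (2.02%) and 19 for H3K4me3 (17.3%), against a lower bar. The gene span alone, separation by order alone, a peak with most of its bases in the window, a start window of 1 kb, no minimum of reads and the total without mitochondrial and contig identifiers kept each count and median within 1.5 times. H3K9ac, H2AK5ac and H3K23ac had 0 placeable reads at 29, 27 and 19 of 34 members, in H3K14ac-rich peaks alone, while the shallowest library, H3K4me3, had 0 at 8. Bases shared by several lists may be missing from these counts. The IgG library limits the folds: with its floor of 3 reads, a 2-fold difference needs 41.5 reads of H3K27ac or 24.2 of H3K4me3.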
